A study of Mus musculus with 6 samples.

Results

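The circadian clock genes examined here were Per1, Per2, Per3, Cry1, Cry2, Arntl, Clock, Nr1d1, Nr1d2 and Dbp, chosen by their gene names in the deposited expression table. All 10 were among the 28752 genes of the table, and all 10 passed the filter on low counts that left 18348 genes for testing. They were followed through 6 RNA sequencing libraries of mouse intestinal crypt stem cells, 3 carrying the vector (labelled genotype WT) and 3 overexpressing circEZH2_005, a circular RNA of the Ezh2 gene. The study's general organoid methods describe Lgr5-positive stem cells from Lgr5-GFP mice, grown into crypt-villus organoids. Its results call the sequenced cells intestinal crypt cells. circEZH2_005 was delivered by an adenovirus for 72 h. Every library, vector included, came from cells put through hypoxia/reoxygenation (H/R), with 4 h at 2% O2, so the comparison asks which transcripts differed with circEZH2_005 under H/R. An age is stated in the sources for C57BL/6 mice but not tied to the mice of these libraries. What virus the vector libraries received, the length of reoxygenation and the time of day of collection are not given in the sources used here. With 1 collection per library, a difference in clock phase and a difference in clock gene level cannot be told apart. The labels do not say whether libraries of a group came from separate cultures or animals, so p-values measure the spread between these libraries, which may be technical.

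The mammalian clock is a feedback loop of transcription. CLOCK (or its paralog NPAS2) pairs with BMAL1, the product of Arntl, and drives Per, Cry, Nr1d and Dbp through E-boxes, after which PER and CRY proteins inhibit their own activators. A further loop runs through retinoic acid receptor-related response elements (ROREs), where NR1D1 and NR1D2 repress and RORA activates Arntl, Clock, Cry1 and Nfil3, and an additional one through D-boxes, where DBP, TEF and HLF activate and NFIL3 represses genes such as the Per family. In the intestinal epithelium the clock is known to time cell division, nutrient transport and barrier functions.

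The promoters that carry these elements are shown because the members are described below by the element they act on. Of the members, 9 had entries in the RefSeq promoter table of GRCm38.p6, with 13 promoters of 300 bases that run from 250 bases before to 50 after a transcript start. A set of 3 motifs was searched on both strands, the E-box CACGTG, the D-box as TTATGTAA or TTACGTAA, and the RORE core as TAGGTCA or TGGGTCA, which do not overlap in these windows. Each sequence is written 5′ to 3′ on the strand of the gene, with the motif in capitals, an E-box in Per1 (the promoter of its first start) and Cry1, a pair of D-boxes in Per3, and a RORE core in Arntl (the promoter of its second start) and in Nfil3, a partner gene described below, where the capitals are the reverse complement of the core.
Per1 (chr11:69098699-69098998, plus strand): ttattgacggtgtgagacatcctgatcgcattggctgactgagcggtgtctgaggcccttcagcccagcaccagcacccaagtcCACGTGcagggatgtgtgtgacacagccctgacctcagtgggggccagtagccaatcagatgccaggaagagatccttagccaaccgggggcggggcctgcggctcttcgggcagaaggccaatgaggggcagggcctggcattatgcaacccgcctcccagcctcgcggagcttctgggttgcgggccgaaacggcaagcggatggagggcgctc
Cry1 (chr10:85185005-85185304, minus strand): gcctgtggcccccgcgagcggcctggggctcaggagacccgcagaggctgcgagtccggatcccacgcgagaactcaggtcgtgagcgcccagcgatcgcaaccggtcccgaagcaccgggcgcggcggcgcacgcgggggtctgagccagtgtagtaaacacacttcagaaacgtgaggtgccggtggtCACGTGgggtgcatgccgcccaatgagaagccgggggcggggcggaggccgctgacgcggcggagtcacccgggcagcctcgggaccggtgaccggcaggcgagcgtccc
Per3 (chr4:151044616-151044915, minus strand): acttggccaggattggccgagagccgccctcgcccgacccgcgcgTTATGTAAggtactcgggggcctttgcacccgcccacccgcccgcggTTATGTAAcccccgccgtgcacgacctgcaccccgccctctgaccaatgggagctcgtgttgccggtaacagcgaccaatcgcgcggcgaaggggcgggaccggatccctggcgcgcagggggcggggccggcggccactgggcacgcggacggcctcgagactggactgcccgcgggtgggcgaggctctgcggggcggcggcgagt
Arntl (chr7:113207261-113207560, plus strand): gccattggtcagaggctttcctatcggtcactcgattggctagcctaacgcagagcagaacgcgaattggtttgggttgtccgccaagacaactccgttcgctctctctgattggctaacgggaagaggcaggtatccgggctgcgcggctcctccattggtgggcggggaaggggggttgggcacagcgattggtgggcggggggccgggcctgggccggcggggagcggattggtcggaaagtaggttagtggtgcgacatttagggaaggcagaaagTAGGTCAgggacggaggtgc
Nfil3 (chr13:52980990-52981289, minus strand): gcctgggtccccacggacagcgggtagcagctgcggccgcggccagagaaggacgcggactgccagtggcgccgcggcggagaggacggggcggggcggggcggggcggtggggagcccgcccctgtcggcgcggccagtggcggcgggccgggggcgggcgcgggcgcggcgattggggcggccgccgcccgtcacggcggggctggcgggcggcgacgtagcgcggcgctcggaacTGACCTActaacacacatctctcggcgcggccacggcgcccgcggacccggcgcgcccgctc
The E-box stood 166 bases before the start in Per1 and 60 before it in Cry1, and 7.15% of all 32851 promoters of the table held one. The Per3 D-boxes began 205 and 158 bases before the start, and 1.06% of promoters held a D-box. The RORE core lay 31 bases after the start in Arntl and 12 before it in Nfil3, and 6.45% of promoters held the core. The windows of Cry2, Clock, Nr1d1, Nr1d2 and Dbp held none of these letters, which says nothing of sites elsewhere in those genes. A match describes letters and is not a shown binding site.

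Depth was between 71506487 and 79919893 counts per library, and 674 of the genes tested (3.67%) passed an adjusted p-value of 0.05 (quasi-likelihood test of edgeR, adjusted by Benjamini-Hochberg), 493 higher (2.69%) and 181 lower (0.986%) with circEZH2_005. The total of 674 depended on which library was left out, being 28 without vector 1, 1432 without vector 2 and 33 without vector 3. It was 681 without circEZH2_005 1, 68 without circEZH2_005 2 and 169 without circEZH2_005 3. Vector 2 correlated with the circEZH2_005 libraries (Pearson's r of log2 CPM over genes 0.965 to 0.971) about as closely as with the other vector libraries (0.970 with each). The label of intestinal crypt stem cells was checked by Krt20 and Vil1 of differentiated epithelium, at mean FPKM of 582 and 544, and by the stem cell markers Olfm4, Smoc2, Ascl2 and Lgr5, at 469, 10.7, 2.53 and 1.05. Leukocyte markers were also present, 12 of 12 with counts in every library, and their summed CPM was 708 to 1005 with vector and 1762 to 2249 with circEZH2_005. Without Cd74, which epithelium can also express, the other 11 summed to 78.4, 203 and 96.1 CPM with vector and 447, 355 and 275 with circEZH2_005, and vector 2 was thus the vector library nearest to the other group.

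Clock and Arntl, the activating arm, were the most abundant members per transcript length, and Dbp was the least. On the deposited FPKM scale, which divides by transcript length, mean levels over the 6 libraries were 7.87 ± 0.87 for Clock, 7.15 ± 0.41 for Arntl, 5.39 ± 1.22 for Cry1, 4.95 ± 2.08 for Nr1d1, 4.47 ± 0.50 for Nr1d2, 2.24 ± 0.69 for Per2, 1.47 ± 0.11 for Per1, 0.797 ± 0.190 for Cry2, 0.363 ± 0.123 for Per3 and 0.138 ± 0.034 for Dbp (SD, n = 6). Neighbours among the first 5 genes of this order had overlapping ranges, and Clock exceeded Arntl in 4 of 6 libraries, Arntl exceeded Cry1 in 6, Cry1 exceeded Nr1d1 in 2, and Nr1d1 exceeded Nr1d2 in 4. From Nr1d2 downwards each gene exceeded the next in all 6 libraries, and only the ranges of Per2 and Per1 overlapped among these. Within each family the order was the same in every library, Cry1 above Cry2, and Per2 above Per1 above Per3.

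**Figure D1:**
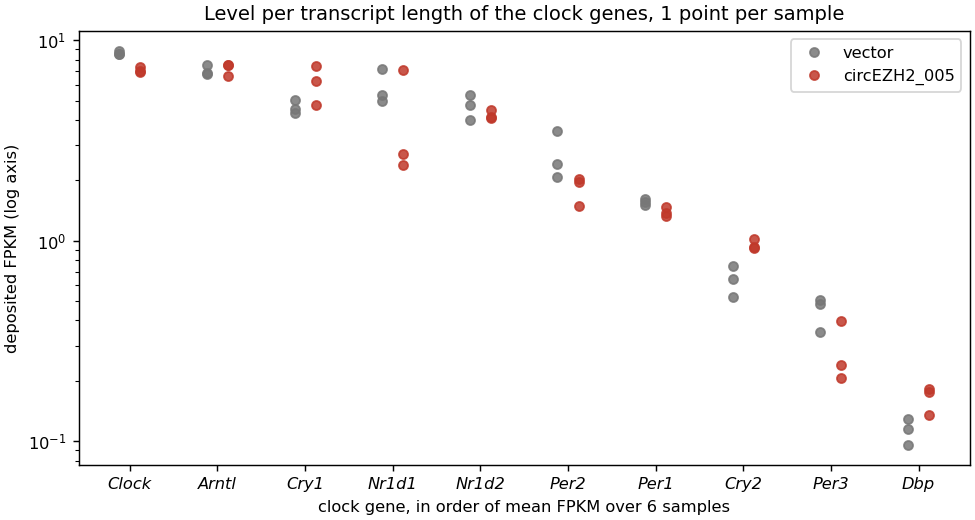
Deposited FPKM (log axis) of each clock gene, ordered by its mean over the 6 libraries, with 1 point per library, grey for vector and red for circEZH2_005. Levels fall from 7.87 for Clock to 0.138 for Dbp, and the points of Nr1d1 spread from 2.39 to 7.19.

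Of the 10 clock genes, 0 passed the adjusted p-value of 0.05 by edgeR, against 3.67% of all genes tested. An unadjusted p-value under 0.05 was found for 3 of them (Cry1 and Cry2, higher, and Clock, lower) and for 23.7% of all genes. DESeq2 called 1 of the 10 (Cry2), against 13.4% of the 17015 genes it tested, and limma on log2(FPKM + 1) called 0 of the 8 members it could test. In CPM scaled by trimmed mean of M values (TMM), the groups did not overlap for 3 genes that were higher with circEZH2_005 (Cry1, Cry2 and Dbp; 16.4% of all genes) and for 2 that were lower (Per1 and Clock; 14.2% of all genes). Each count lay within 2 genes of what the share over all genes gives for 10. The median log2 fold change was -0.07 over the members and 2.15e-05 over all genes tested, with 4 members above 0 and 6 below, and the median size was 0.43 against 0.25. The 95% interval lay within 1 log2 unit of 0 for 6 members (Per1, Per2, Cry1, Arntl, Clock and Nr1d2) and not for Per3, Cry2, Nr1d1 and Dbp.

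**Figure D2:**
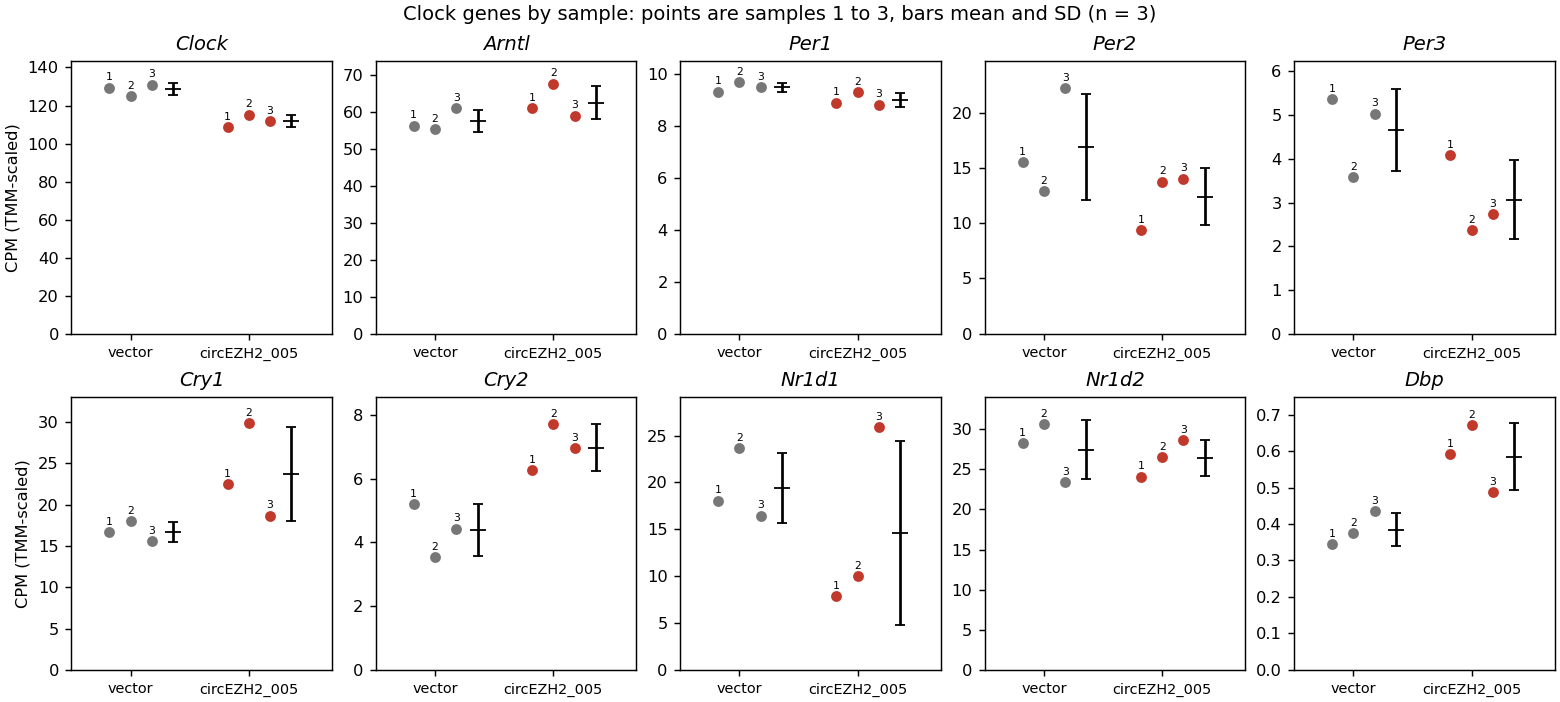
TMM-scaled CPM of each clock gene in every library (numbered points, axes from 0, bars mean and SD, n = 3), vector in grey and circEZH2_005 in red. The groups separate for Clock, Per1, Cry1, Cry2 and Dbp, and for Nr1d1 library 3 of circEZH2_005 stands at 25.9 CPM, above the other two.

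Clock (ENSMUSG00000029238, chromosome 5, 76209868 to 76304792, minus strand, GRCm38), which encodes the DNA-binding partner of BMAL1, had 129, 125 and 131 CPM with vector and 109, 115 and 112 with circEZH2_005. All 3 circEZH2_005 values lay under the lowest vector value, though by little. The log2 fold change was -0.20 (SE 0.07, 95% interval -0.37 to -0.03) with an adjusted p of 0.148 by edgeR. Arntl (ENSMUSG00000055116, chromosome 7, 113207465 to 113314126, plus strand), the gene of BMAL1, had 56.3, 55.3 and 61.0 CPM with vector and 61.0, 67.6 and 59.0 with circEZH2_005. The groups overlapped, with a log2 fold change of 0.12 (SE 0.08, interval -0.08 to 0.32, adjusted p = 0.445 by edgeR), or 0.06 without circEZH2_005 2. The activating arm therefore held the narrowest intervals of the members, and neither gene differed beyond the adjusted threshold.

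Per1 was the steadiest of the Period genes, whose proteins carry the repression of CLOCK and BMAL1, while Per2 and Per3 had lower means with circEZH2_005 but overlapping groups. Per1 (ENSMUSG00000020893, chromosome 11, 69095217 to 69109960, plus strand) had 9.32, 9.68 and 9.49 CPM with vector and 8.91, 9.31 and 8.82 with circEZH2_005. The highest circEZH2_005 value lay just under the lowest vector value, and the log2 fold change was -0.08 (SE 0.12, interval -0.35 to 0.20, adjusted p = 0.757 by edgeR). Per2 (ENSMUSG00000055866, chromosome 1, 91415982 to 91459324, minus strand) had 15.5, 12.9 and 22.2 CPM with vector and 9.40, 13.8 and 14.0 with circEZH2_005. Its vector group was spread by library 3, its highest, and the log2 fold change was -0.45 (SE 0.24, interval -0.995 to 0.104, adjusted p = 0.305), or -0.20 without that library and -0.28 without circEZH2_005 1. Per3 (ENSMUSG00000028957, chromosome 4, 151003652 to 151044665, minus strand), the gene with the D-box pair printed above, had 5.36, 3.59 and 5.03 CPM with vector and 4.09, 2.38 and 2.74 with circEZH2_005. Vector 2 lay under the highest circEZH2_005 value, so the groups overlapped, and the log2 fold change was -0.60 (SE 0.27, interval -1.22 to 0.02, adjusted p = 0.222 by edgeR).

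Both Cryptochrome genes, which encode the direct inhibitors of CLOCK and BMAL1, had higher values in all 3 circEZH2_005 libraries, and neither passed the adjusted threshold by edgeR. Cry1 (ENSMUSG00000020038, chromosome 10, 85131700 to 85185064, minus strand) had 16.7, 17.96 and 15.6 CPM with vector and 22.4, 29.9 and 18.7 with circEZH2_005. The nearest values of the groups were vector 2 and circEZH2_005 3, and the log2 fold change was 0.50 (SE 0.17, interval 0.10 to 0.90, adjusted p = 0.136 by edgeR), or 0.30 without circEZH2_005 2, its highest library. Cry2 (ENSMUSG00000068742, chromosome 2, 92403646 to 92434043, minus strand) had 5.19, 3.55 and 4.43 CPM with vector and 6.26, 7.71 and 6.95 with circEZH2_005. Of the members it came nearest to the threshold, with a 1.59-fold higher level (log2 fold change 0.67, SE 0.19, interval 0.22 to 1.11, adjusted p = 0.0887 by edgeR). DESeq2 gave the same log2 fold change of 0.67 with an adjusted p of 0.0212, the only member call of any tool. An antisense gene, D930015M05Rik, covers 295 of the 6320 exonic bases of Cry2 (4.67%) and had 0 to 15 counts itself. No source used here says that reads were assigned by strand, so those of such overlaps cannot be told apart.

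Nr1d1 varied more between libraries of a group than any other member, and Nr1d2 was among the steady ones. Both encode REV-ERB repressors, which bind heme and act on ROREs such as the core in the Arntl promoter above. Nr1d1 (ENSMUSG00000020889, chromosome 11, 98767932 to 98775333, minus strand) had 18.1, 23.6 and 16.5 CPM with vector and 7.90, 9.99 and 25.9 with circEZH2_005. Libraries 1 and 2 of circEZH2_005 lay under every vector value and library 3 above every one, and the pooled SD within groups was 0.67 on the log2 scale, against 0.04 to 0.36 for the other 9 members. The log2 fold change of -0.41 (SE 0.42, interval -1.38 to 0.56, adjusted p = 0.609 by edgeR) became -1.12 without circEZH2_005 3, with an adjusted p of 0.0635, and -0.12 without circEZH2_005 1. Thra, on the opposite strand, shares 263 of the 3077 exonic bases of Nr1d1 (8.55%) and had 3881 to 4849 counts. Nr1d2 (ENSMUSG00000021775, chromosome 14, 18204054 to 18239127, minus strand) had 28.2, 30.7 and 23.5 CPM with vector and 24.1, 26.5 and 28.7 with circEZH2_005. The groups overlapped fully, with a log2 fold change of -0.05 (SE 0.12, interval -0.34 to 0.23, adjusted p = 0.839), which was 0.03 without vector 2 and 0.01 without circEZH2_005 1.

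Dbp, which encodes a D-box activator of the PAR bZIP family (proline and acidic amino acid-rich basic leucine zipper) and is a strongly cycling output gene in liver, was near the bottom of what could be measured. Dbp (ENSMUSG00000059824, chromosome 7, 45705088 to 45710203, plus strand) had 25, 28 and 34 counts with vector and 47, 50 and 35 with circEZH2_005, or 0.345, 0.375 and 0.434 CPM against 0.591, 0.672 and 0.489. The groups did not overlap, and the nearest were vector 3 and circEZH2_005 3, which differed by 1 count before scaling. The log2 fold change was 0.60 (SE 0.38, interval -0.27 to 1.47, adjusted p = 0.385 by edgeR), and a change of either sign lay within its interval. Sphk2 lies on the opposite strand over 539 of the 2993 exonic bases of Dbp and had 4493 to 5541 counts, so part of the few Dbp counts cannot be told apart from Sphk2 reads.

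**Figure D3:**
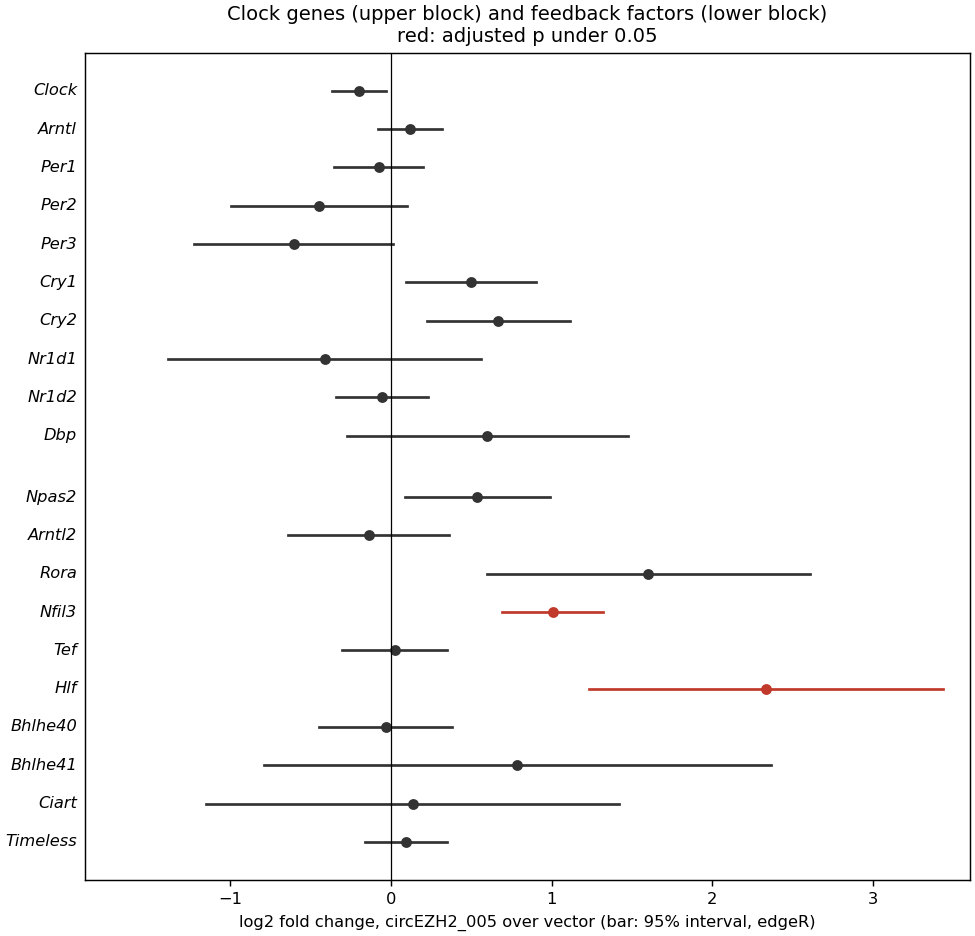
Log2 fold change of circEZH2_005 over vector (edgeR; bars are 95% intervals) for the 10 clock genes in the upper block and 10 paralogs and feedback factors in the lower block, with adjusted p under 0.05 in red. Among these genes Nfil3, at 1.01, and Hlf, at 2.34, are red, while the intervals of Clock, Cry1, Cry2, Npas2 and Rora exclude 0 without an adjusted call.

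The genes that share the clock's elements with the members held 2 calls, both higher with circEZH2_005, among 11 tested, against 2.69% of all genes in that direction (Rorb, with 0 counts in 4 libraries, was not tested). The list's median log2 fold change was 0.14, with 8 genes above 0 and 3 below. Nfil3, the D-box repressor and a gene that REV-ERB proteins repress in the intestine, had 13.7, 13.4 and 11.4 CPM with vector and 25.8, 29.2 and 22.4 with circEZH2_005. Every circEZH2_005 library lay well above every vector one, and Nfil3 rose 2.01-fold (log2 fold change 1.01, SE 0.13, interval 0.69 to 1.32, adjusted p = 0.0185 by edgeR). Hlf, a D-box activator related to Dbp, rose from 0.193, 0.442 and 0.524 CPM to 2.10, 2.63 and 1.14 (log2 fold change 2.34, SE 0.47, adjusted p = 0.0448 by edgeR). It was a low-level gene in both groups, at a mean of 0.153 FPKM. The adjusted p of Nfil3 was 0.0849 without vector 1, 0.103 without vector 3 and 0.0710 without circEZH2_005 2. That of Hlf was 0.137 without vector 1, 0.133 without vector 3, and 0.0737, 0.156 and 0.0591 without circEZH2_005 1, 2 and 3. Without a filter on low counts the Hlf call was lost as well (0.0880). Arntl2, the paralog of Arntl, had the lowest log2 fold change of the list at -0.14 (adjusted p = 0.753).

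Rora, a RORE activator chosen after its values were seen, had 1.23, 3.80 and 1.699 CPM with vector and 7.57, 8.18 and 4.68 with circEZH2_005. Its log2 fold change was 1.602 (SE 0.43, adjusted p = 0.0786 by edgeR), and 2.22 without vector 2 (adjusted p = 0.00868). Like the leukocyte markers, it was highest among the vector libraries in vector 2. Leukocyte markers moved with the group as Nfil3, Hlf and Rora did, 12 of 12 having a log2 fold change above 0 (median 1.28, 1 call), and all are above 0 counts in every library. Their part in these results was not tested, and in bulk samples fewer cells of a type and less RNA per cell cannot be told apart.

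The balance of the factors on D-boxes and E-boxes was taken as sums of FPKM. At the D-box, the activators Dbp, Tef and Hlf together summed to 1.66, 1.53 and 1.75 FPKM with vector and 1.82, 2.07 and 1.61 with circEZH2_005, overlapping between groups. The ratio of Nfil3 to this sum was 3.69, 4.05 and 2.99 with vector and 6.54, 5.81 and 5.81 with circEZH2_005. Nfil3 itself stood at 6.14, 6.21 and 5.22 FPKM with vector and 11.9, 12.02 and 9.35 with circEZH2_005, apart in every library. Tef, the largest activator at 1.45 FPKM, had a log2 fold change of 0.02 (adjusted p = 0.940), which is -0.02 with upper-quartile scaling. At the E-box, the ratio of Arntl to the summed 5 Per and Cry genes was 0.702, 0.719 and 0.715 with vector and 0.717, 0.624 and 0.718 with circEZH2_005, and the groups overlapped.

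**Figure D4:**
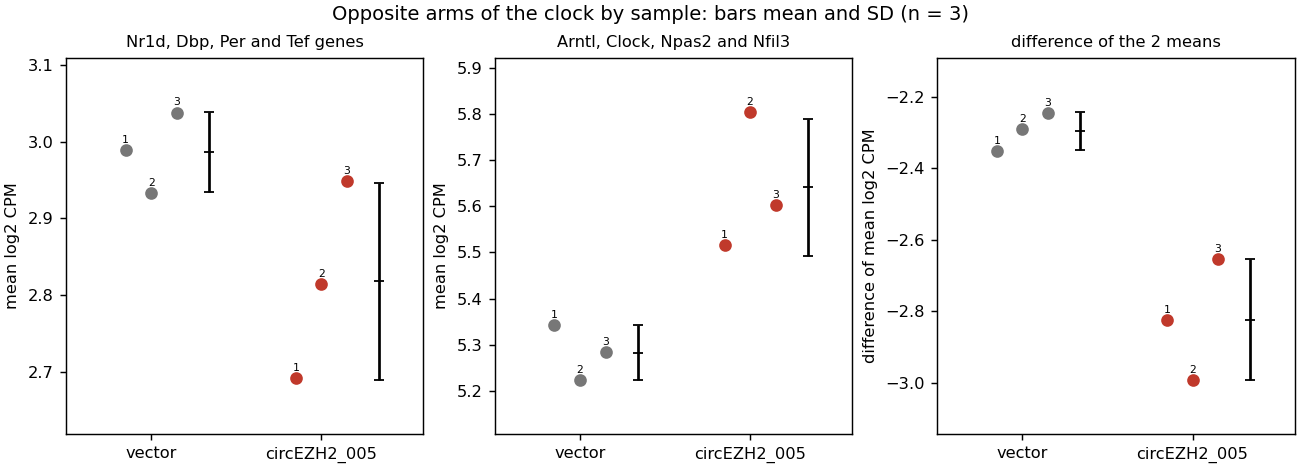
Mean log2 CPM per library (numbered points, bars mean and SD, n = 3) of 7 genes that peak together in a running clock (left), of 4 that peak about opposite to them (middle), and the difference of these means (right). The difference is -2.35 to -2.25 with vector and -2.99 to -2.65 with circEZH2_005. Hlf is not among the 7 genes.

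In a running clock Nr1d1, Nr1d2, Dbp, Tef and the Per genes peak at about the opposite time to Arntl, Clock, Npas2 and Nfil3. The mean log2 CPM of the former 7 minus that of the latter 4 was -2.35, -2.29 and -2.25 with vector and -2.82, -2.99 and -2.65 with circEZH2_005. The groups did not overlap, and the difference between their means was -0.53, or -0.46 without Nr1d1, -0.54 without Per1 and -0.31 without Nfil3, again with no overlap in the last case. The 4-gene mean separated the groups, at 5.34, 5.22 and 5.28 with vector and 5.52, 5.81 and 5.60 with circEZH2_005. That of the 7 genes was 2.99, 2.93 and 3.04 with vector and 2.69, 2.81 and 2.95 with circEZH2_005, where vector 2 lay under circEZH2_005 3. Without Nfil3 the mean of the remaining 3 genes overlapped between groups, at 5.86, 5.71 and 5.87 with vector and 5.79, 6.12 and 5.98 with circEZH2_005. Of the 4 genes Clock had a log2 fold change below 0, and Nfil3 (1.01) and Npas2, the paralog of Clock, at 0.54 (SE 0.19, adjusted p = 0.146), had those furthest above it. Hlf, which was summed with Dbp and Tef above, was not among the 7 genes. It rose with circEZH2_005 (log2 fold change 2.34, adjusted p = 0.0448 by edgeR), against the direction of the difference. Whether the groups stay apart with Hlf included was not computed, so the lack of overlap is stated only for the genes used, without Hlf. The difference between the gene means is a description of 6 libraries without a time series, and no test was made on it.

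Genes that act on clock proteins or read the clock were followed as fixed lists. The first list held 12 modifiers of clock proteins, which are kinases, ubiquitin ligases and other enzymes that act on such proteins. Of these, 0 passed the adjusted threshold by edgeR (3.67% of all genes) and 3 had an unadjusted p under 0.05 (23.7% of all genes). The median log2 fold change was 0.05. Their extremes were Fbxl21, a CRY ubiquitin ligase subunit, at 0.98 (SE 0.36, adjusted p = 0.151), and Huwe1, a ubiquitin ligase, at -0.08 (SE 0.08, adjusted p = 0.604). Of 10 genes known as clock outputs, 2 were called higher and 0 lower (2.69% and 0.986% of all genes), and the median log2 fold change was 0.52. An unadjusted p under 0.05 by edgeR was found for 6 of them, all higher (23.7% of all genes in either direction). The groups did not overlap for 6, all higher (16.4% of all genes in that direction). Noct, a rhythmic phosphatase of NADP(H), rose from 26.4, 29.9 and 26.8 CPM to 40.8, 60.2 and 45.8 (log2 fold change 0.82, SE 0.15, adjusted p = 0.0342 by edgeR). Por, the electron donor of cytochrome P450 enzymes, rose from 108, 91.5 and 102 CPM to 148, 182 and 145 (log2 fold change 0.66, SE 0.12, adjusted p = 0.0325 by edgeR). The groups did not overlap for either gene. The transporter Abcb1a had the highest log2 fold change of the outputs, 1.11 (SE 0.28, adjusted p = 0.0700), and the cell cycle kinase Wee1 the lowest, -0.02 (SE 0.11, adjusted p = 0.922).

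The calls of Noct and Por were lost without vector 1 (adjusted p 0.142 and 0.116), vector 3 (0.152 and 0.138), circEZH2_005 2 (0.0752 and 0.0869) and circEZH2_005 3 (0.0719 and 0.0609), and without a filter on low counts (0.0713 and 0.0643). Krt20, a marker of differentiated epithelium, was also higher with circEZH2_005 (776, 787 and 770 against 1443, 2248 and 1591 CPM, log2 fold change 1.18, adjusted p = 0.0207 by edgeR), and was the highest in circEZH2_005 2, as Noct and Por were. The stem cell markers Lgr5 (log2 fold change -0.88, adjusted p = 0.0434) and Smoc2 (-0.81, adjusted p = 0.0203) were lower, and the list of 8 epithelial markers summed to 6419 to 6999 CPM with vector and 7131 to 9352 with circEZH2_005. The Krt20 call was lost without vector 1 (adjusted p 0.106) and vector 3 (0.111), the Smoc2 call without vector 1 (0.0976), vector 3 (0.103), circEZH2_005 2 (0.0806) and circEZH2_005 3 (0.0520), and the Lgr5 call without every library but vector 2 (0.0714 to 0.166), without a filter (0.0804) and by limma (0.0572 and 0.0578). The part of these markers in the output genes' values was not tested.

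A further list held 8 genes that carry or respond to the glucocorticoid and cAMP signals known to reset the clock. Of these, 1 was called, lower with circEZH2_005 (0.986% of all genes), and the median log2 fold change was 0.08. Fkbp5, a chaperone partner of the glucocorticoid receptor and one of its target genes, fell from 72.0, 102 and 80.02 CPM to 31.6, 27.4 and 32.3. The groups were far apart, with a log2 fold change of -1.48 (SE 0.14, interval -1.81 to -1.15, adjusted p = 0.00658 by edgeR), and it was under 0.05 in 14 of 14 alternatives, the highest adjusted p being 0.0396. Tsc22d3, another glucocorticoid receptor target, had the highest log2 fold change of the list, 0.54 (SE 0.19, adjusted p = 0.132), opposite in sign to Fkbp5.

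**Figure D5:**
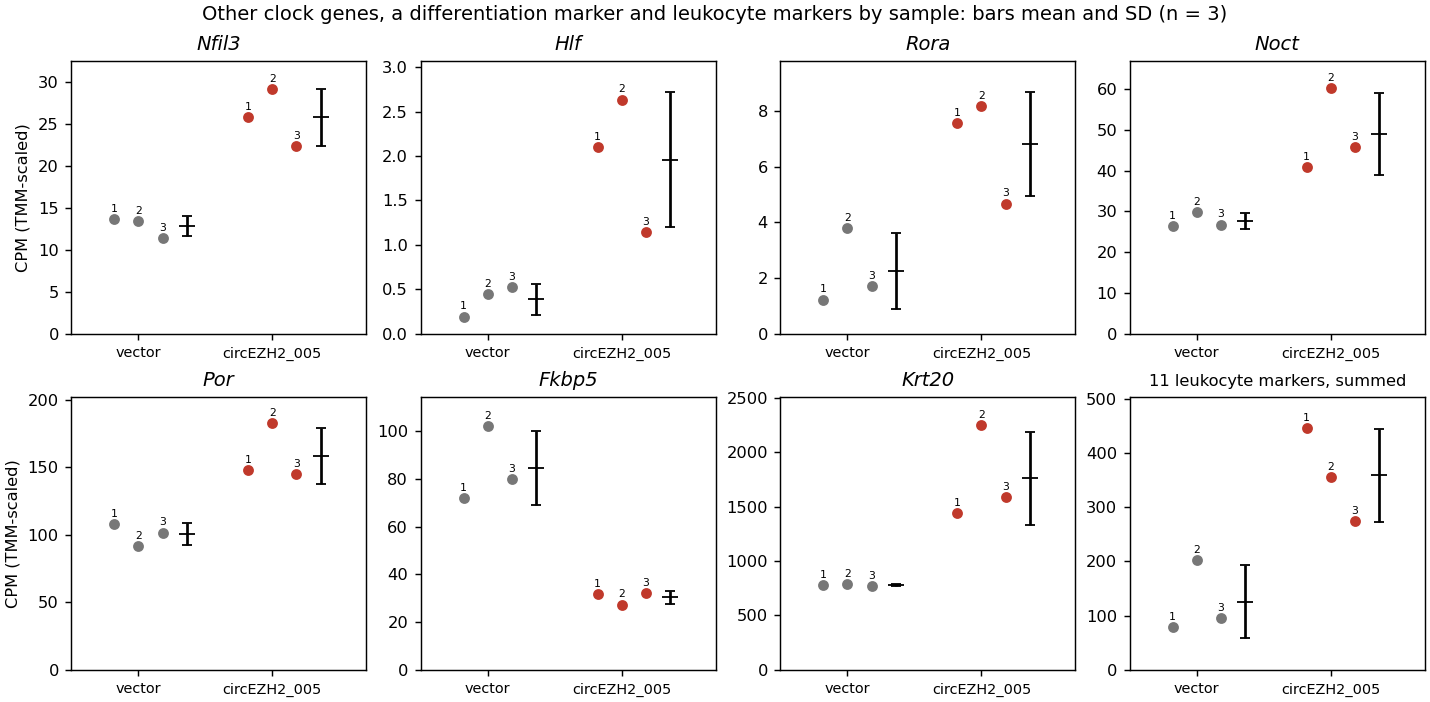
TMM-scaled CPM by library (numbered points, axes from 0, bars mean and SD, n = 3) of Nfil3, Hlf, Rora, Noct, Por, Fkbp5, the differentiation marker Krt20 and the sum of 11 leukocyte markers. Every circEZH2_005 point lies above every vector point except for Fkbp5, where every one lies below, at 27.4 to 32.3 against 72.0 to 102.

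The genes with the pattern most like that of Dbp, by the root mean square (RMS) difference of centred log2 CPM over the 6 libraries among 11546 genes, were Daam1 (RMS 0.0523), 4933427D14Rik (0.0655) and Arhgap31 (0.0697). Their log2 fold changes were 0.52, 0.54 and 0.55, with adjusted p-values of 0.0668, 0.0651 and 0.0685 by edgeR. Those most like Cry2 were St3gal4 (RMS 0.0804), 1700058P15Rik (0.0845) and Il15 (0.0847), with log2 fold changes of 0.68, 0.64 and 0.60 and adjusted p-values of 0.0434, 0.210 and 0.108. Genes chosen this way have fold changes near those of Dbp or Cry2 by the choice itself. The pattern of Dbp also rests on only 25 to 50 counts per library. The St3gal4 call was lost without every library but circEZH2_005 1 (0.0586 to 0.166) and without a filter on low counts (0.0861).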

How the data were processed

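RNA sequencing of 6 libraries was used, with groups and replicate numbers taken from the labels. The authors deposited the count of reads per gene and library without normalization, and these counts were tested. The authors also deposited FPKM, which divides by transcript length and depth, and it was used for levels between genes. The submitters' processing notes name mm10, cutadapt 1.9, HISAT2 2.0.4, StringTie 1.3.4d and DESeq2, with no roles, and the counter, its strand setting and its treatment of shared reads are not given in the sources used here. The columns named as negative control were matched to the vector libraries as the only control group, and 0 columns of library values were left unused.

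Counts were filtered with filterByExpr, scaled with TMM and tested by quasi-likelihood in edgeR 4.0.16 (R 4.3.3) over 18348 genes without a covariate. Adjusted p-values are Benjamini-Hochberg over these genes, a call is an adjusted p under 0.05, SE is the log2 fold change over the square root of F, and intervals are 95%. log2 CPM used a prior count. The members and lists were chosen with earlier results of these data known. Named genes were every member, in each other list the called genes and the genes of highest and lowest log2 fold change, and the 3 genes nearest in pattern to Dbp and to the member of smallest p (mean of at least 1 FPKM). Alternatives were median-of-ratios and upper-quartile scaling, no filter or a minimum mean of 2 FPKM, DESeq2 1.42.0, limma 3.58.1 on genes averaging 0.5 FPKM or more (log2 of FPKM + 1 or + 0.1), the replicate number as a block, and each library left out. For the difference between gene means, leaving out Nr1d1, Nfil3 or a library was chosen after seeing the data. On simulated data for this comparison (18348 genes, 200 changed by 1.5 on the log2 scale), edgeR found 178 with 5.32% of calls unchanged genes, the block 177 with 4.84%, and DESeq2 188 with 14.2%. In the simulation every gene had the same relative spread beyond counting noise, and libraries were independent. Its shares need not hold for the calls made here. At this depth 3 counts equal 0.0377 to 0.0419 CPM. Intervals assume independent libraries. Positions and overlaps follow GENCODE M21 (GRCm38), and those printed matched the deposited table. No library was a copy of another, with at most 1.25% of genes at identical counts in any pair. The values of 1 gene among the feedback factors are not reported here.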

Additional observations from a re-analysis of the deposited data

How the results depend on the processing

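The count of 0 members called held under every alternative but DESeq2, which called 1 (Cry2). DESeq2 and edgeR without a filter tested 10 members, limma 8 and the filter at 2 FPKM 6. Of the other clock genes, 5 of 41 tested were called in all, where 3.67% of all genes were. DESeq2 called 10 of 40, where it called 13.4% of all genes. Without a filter 2 of 42 were called, with the replicate block 3 of 41, and with a library left out 1 to 7 of 41. The whole table gave 674 calls of 18348 genes tested, against 169 of 28752 without a filter and 2272 of 17015 by DESeq2. The replicate block gave 277 of 18348, and the fits with a library left out gave 28 to 1432. With limma on log2(FPKM + 1) the split was 371 higher and 364 lower, and with log2(FPKM + 0.1) 323 and 319, in place of 493 and 181. Signs reversed for genes near 0: Nr1d2 ranged from -0.16 to 0.032 and Wee1 from -0.13 to 0.031 with a library left out. Tef was -0.021 with upper-quartile scaling, -0.040 and -0.064 by limma (FPKM + 1 and + 0.1), and -0.088 to 0.10 with a library left out. The leukocyte marker Lyz2 was -0.019 with limma on log2(FPKM + 0.1) and -0.27 to 0.56 with a library left out. The cause was not tested, other than that fewer libraries enter. The difference between the gene means ranged from -0.61 to -0.44 with a library left out and was -0.52 on FPKM, and -0.31 without Nfil3, which had the largest log2 fold change of its 4 genes. Same-numbered libraries did not deviate together (correlations of -0.136, -0.0234 and 0.0363), nor did every library correlate best with its own number, so the numbers were not taken as pairs. Of the named calls, those of Hlf (adjusted p 0.0886), Por (0.0798), Lgr5 (0.0970), Pecam1 (0.0924) and St3gal4 (0.113) were not made with the replicate block, and it changed no other named call.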

Other observations

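Within each group the library with the highest Nr1d1 (vector 2 and circEZH2_005 3) was the lowest for Arntl. Of the genes compared here, this held in both groups for Arntl only. Over 5 genes that REV-ERB proteins are known to repress (Arntl, Clock, Npas2, Cry1 and Nfil3) and both groups, it was the lowest of its group in 6 of 10 cases. Among 3 libraries of unrelated rank, a given library would be the lowest in 1 of 3 cases. Vector 2 was the highest of its group for Cry1 and the middle one for Nfil3. With only 3 libraries per group, and the same libraries behind every gene, these cases are few and not independent. This count was chosen after the values were seen and was not tested.

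The remaining markers of the fixed lists had the following values. The MHC class II chaperone gene Cd74 was higher by 1.27 on the log2 scale (adjusted p = 0.0181 by edgeR), lost without vector 1 (0.0975), vector 3 (0.104), circEZH2_005 2 (0.0643) and circEZH2_005 3 (0.0520). Cd3g, of the T cell receptor complex, had the highest of the leukocyte list, 1.99 (adjusted p = 0.0668), and Lyz2 the lowest, 0.18 (adjusted p = 0.859). Among 7 stromal and endothelial markers tested 1 was called, against 2.69% of all genes in that direction, namely Pecam1, at 1.93 (adjusted p = 0.0377), lost without every library but vector 2 (0.0571 to 0.133) and without a filter on low counts (0.0747), and Pdgfra was the lowest at -0.50 (adjusted p = 0.788), or -1.954 without circEZH2_005 1 and -0.0076 without circEZH2_005 3. The list summed to 13.4 to 25.3 CPM with vector and 28.0 to 48.6 with circEZH2_005, and the median log2 fold change was 0.11. Vim made up most of this sum, at 8.2, 16.4 and 11.8 CPM with vector and 32.8, 24.7 and 23.0 with circEZH2_005. Of the 7 tested, 4 had a log2 fold change above 0 and 3 (Col1a1, Col3a1 and Pdgfra) below. Cdh5 was not tested.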
